A study of Homo sapiens with 4 samples.

Results

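The human genes KIFC2, ZFTRAF1, GRK5, CXCL16, COTL1, PITX3, GBF1, IMPDH2, BPTF and CACNG2 lie at sites where GapR-GFP enrichment was among the highest of both deposited peak lists. These 10 genes, of 20033 protein-coding genes in the RefSeq table, were chosen by the fold enrichment of their peaks in both lists, so the height of those peaks is a description and carries no test. Peaks were assigned to a gene when their summit lay in the gene's hg38 span or within 5 kb of it. The highest peaks of the 10 genes were 8 distinct peaks among the 31815 shared peaks, because KIFC2 and ZFTRAF1 claimed the same one, and so did PITX3 and GBF1.

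GapR is a bacterial protein, known from Caulobacter, that binds overtwisted (positively supercoiled) DNA. RNA polymerase overtwists the DNA ahead of it and undertwists the DNA behind it as it moves, and the type II topoisomerases TOP2A and TOP2B relax the torsion by passing a duplex through a transient break. In the CUT&RUN assay a nuclease tethered through an antibody, here to GFP, releases the DNA beside the bound protein, so that fragment coverage reports where the fusion sits.

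All 4 libraries came from HCT116, a human colorectal carcinoma cell line, with GapR expressed and palbociclib, an inhibitor of CDK4 and CDK6 that holds cells in G1, given at 2 µM for 28 h per the sample labels. The 2 WT libraries carry the genotype wildtype and the 2 MT libraries the genotype TOP2A + TOP2B double knockout in the sample labels. The series design instead describes MT as carrying a mutant GapR fusion and describes the cells as asynchronous. The files do not settle either conflict, so MT is named by its label, and a peak marks a site with more fragments in a WT library than in MT replicate 1. Duplicate filtering left 21774260 fragments in WT replicate 1 and 27443146 for WT replicate 2, against 23356540 for MT replicate 1. MT replicate 2 entered neither list and was not analysed here. Identity of the cells could not be checked from markers, since no expression was measured, and nothing says that the replicates were separate cultures.

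Each list set 1 WT library against the same MT library, so no test between groups was possible. Pileup is the number of WT fragments over the summit, with 95% exact Poisson intervals, and fold is that pileup over the local MT level, with 1 added to both. The intervals cover counting error only, and those of the fold take the MT level as fixed. Where a pair of folds or ranks stands without names, the order is WT replicate 1, which held 81404 peaks, then WT replicate 2, which held 42656. All 10 genes had at least 1 shared peak, where 66.6% of protein-coding genes did. All 10 passed a fold of 10 in both lists, where 2.83% of protein-coding genes did, and the 8 peaks came from the 1.58% of shared peaks beyond that fold. Both counts follow from how the genes were chosen.

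The 8 peaks had folds of 18.9 to 25.1 in WT replicate 1 and 13.5 to 17.0 in WT replicate 2, with medians of 19.6 and 15.0, against medians of 5.92 and 4.72 over all shared peaks. They lay in the upper right of the plot of fold in one list against the other.

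**Figure D1:**
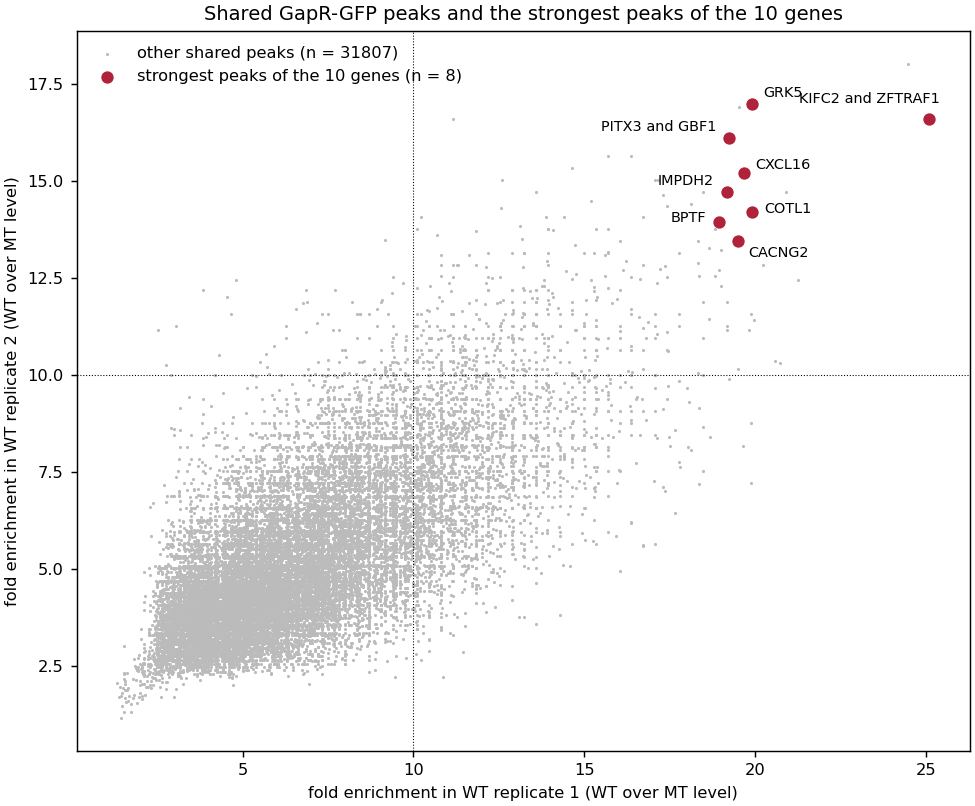
Fold enrichment of each shared peak in WT replicate 1 (x axis) and WT replicate 2 (y axis), as the ratio of WT coverage to the local MT level, with the 8 strongest peaks of the 10 genes in red, the other 31807 shared peaks in grey and dotted lines at a fold of 10. The 8 red points sit between folds of 18.9 and 25.1 on the x axis and between 13.5 and 17.0 on the y axis.

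Coverage at these summits was 54 to 73 fragments in WT replicate 1 and 45 to 57 fragments in WT replicate 2. The MT level computed at the same summits was 1.87 to 2.80 in the WT replicate 1 list and 2.20 to 2.94 in the WT replicate 2 list. No WT interval came near an MT level. Other sites in the genome had more coverage, since the 8 peaks ranked 116 to 318 by pileup in WT replicate 1. In WT replicate 2 they ranked 254 to 427. Their median coverage was 57 and 50.5 fragments, against 20 and 17 over all shared peaks. It was 40 and 36.5 over the strong shared peaks, those that reached the fold limit set above in both lists. The median MT level was 1.93 and 2.29 for the 8, and 1.88 and 2.21 for the strong shared peaks. Against the strong shared peaks, the 8 had a higher median WT coverage and no lower median MT level. A lower MT level could hardly have shown. The computed level had a floor of 1.87 in the WT replicate 1 list and 2.20 in the other. Of the strong shared peaks, 50.2% and 50.6% already stood on that floor. The high fold of the 8, and with it their higher coverage, follows from how they were chosen.

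**Figure D2:**
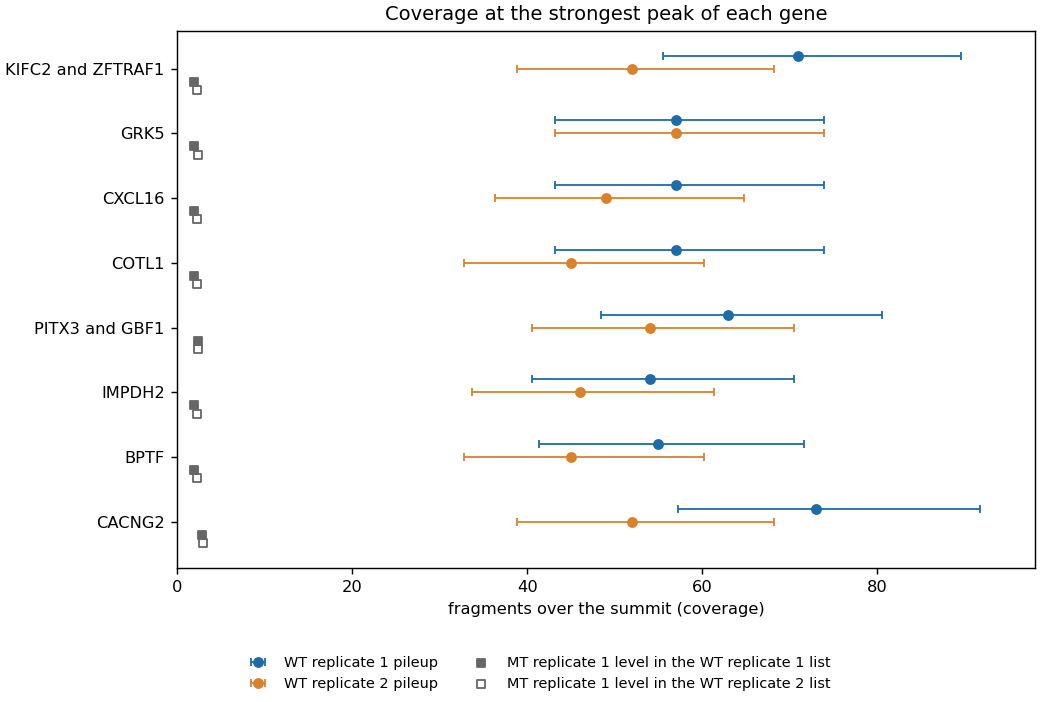
Fragments over the summit of the strongest peak of each gene (x axis, coverage), with WT replicate 1 in blue, WT replicate 2 in orange and bars for 95% exact Poisson intervals. Grey squares are the MT replicate 1 level in each list, filled for the WT replicate 1 list and open for the WT replicate 2 list. WT coverage runs from 45 to 73 fragments and the MT level from 1.87 to 2.94.

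COTL1 and BPTF carried their strongest peak just outside one end of the gene, at a start in COTL1 and at the lower end in BPTF. COTL1 encodes coactosin-like protein, which binds filamentous actin. It runs on the minus strand at chr16:84565596-84618078. Its peak spanned 84616960 to 84619667 in WT replicate 1, with a summit 804 bp upstream of the start, and 84617307 to 84619376 in WT replicate 2, with a summit 823 bp upstream. Coverage was 57 fragments (43.2 to 73.9) in WT replicate 1, against an MT level of 1.91, a fold of 19.9. In WT replicate 2 it was 45 fragments (32.8 to 60.2), against an MT level of 2.24, a fold of 14.2. Both peaks reached over the start, with 1922 bp of the WT replicate 1 peak on the gene's side of the summit and 785 bp on the other. A second shared peak lay 4448 bp upstream of the start in WT replicate 1 and 4417 bp in WT replicate 2, with folds of 9.73 and 7.43. The MT level there was 3.73 and 4.11, higher than at the first peak. The RefSeq promoter under the main peak, 250 bases before to 50 after the start (GRCh38.p14, minus strand, chr16:84618029-84618328), is printed because the peak covers it in both lists, with GC boxes (GGGCGG or CCGCCC) in capitals.
COTL1: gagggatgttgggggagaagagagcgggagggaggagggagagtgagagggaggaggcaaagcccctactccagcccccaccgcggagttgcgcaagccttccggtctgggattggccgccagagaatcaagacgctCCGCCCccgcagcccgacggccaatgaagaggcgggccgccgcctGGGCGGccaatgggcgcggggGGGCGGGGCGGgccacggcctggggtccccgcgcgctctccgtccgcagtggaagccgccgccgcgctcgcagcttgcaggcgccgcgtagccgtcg
The run held 35 CpG dinucleotides, 4 GC boxes, 2 of which overlap, and 3 CCAAT boxes (CCAAT or ATTGG).

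BPTF encodes the largest subunit of the NURF nucleosome remodeling complex, which reads histone modifications through its bromodomain and PHD finger. At chr17:67825503-67984378, its peak lay across the lower end, where lower and upper mean the smaller and larger coordinate of a gene whose strand was not used here. The peak spanned 67824492 to 67825888 in WT replicate 1 and 67824512 to 67825673 in WT replicate 2, with summits 318 and 360 bp outside the gene. Coverage was 55 fragments (41.4 to 71.6) in WT replicate 1, against an MT level of 1.96, and 45 fragments (32.8 to 60.2) in WT replicate 2, against an MT level of 2.3. The folds were 18.9 and 13.9. This was the most symmetric of the 8 peaks in WT replicate 1, with 693 bp below the summit and 703 bp above it. BPTF had 15 other peaks in WT replicate 1 and 5 in WT replicate 2. Their highest folds were 4.44 and 4.15, so 1 site at the gene's end stood far above everything else in 159 kb.

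The peak of KIFC2 and ZFTRAF1 had rank 1 of all peaks by fold in WT replicate 1 and rank 4 in WT replicate 2. KIFC2 encodes a minus-end-directed kinesin motor with its motor domain at the C-terminal end, known from mouse for transport in neurons. The summits fell 1 bp apart, at chromosome 8 positions 144466215 and 144466216, which is 166 and 167 bp inside the lower end of KIFC2 (144466049 to 144474202). Coverage was 71 fragments (55.5 to 89.6) in WT replicate 1, against an MT level of 1.87, a fold of 25.1 (19.7 to 31.5). In WT replicate 2 coverage was 52 fragments (38.8 to 68.2), against an MT level of 2.20, a fold of 16.6 (12.5 to 21.7). Both MT levels were the lowest that MACS2 allowed in each list, a genome-wide background, so the true MT coverage there may have been lower still. ZFTRAF1 (144449582 to 144462871) reached the peak only through the 5 kb window, since its upper end lay 3344 bp from the summit and no shared summit fell inside it. The upper end of TMEM276, which overlaps KIFC2, lay 800 bp above the summit. That of the separately annotated gene TMEM276-ZFTRAF1 (144449582 to 144465701) lay 514 bp below it.

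The edges of that peak differed between the lists. WT replicate 1 had 1 peak of 2657 bp (144465968 to 144468624), with 247 bp of it below the summit and 2409 bp above, and a separate peak of fold 11.15 whose summit lay at 144465328. WT replicate 2 had a peak of 3723 bp (144464572 to 144468294) that overlapped the first and reached over the summit of the second, and a further peak of fold 6.10 under the second, with its summit at 144463105. KIFC2 also had a peak inside the gene at 144472751, with folds of 12.54 and 5.97. Another peak stood beyond its upper end, 3889 bp out in WT replicate 1 with a fold of 12.19, and 3013 bp out in WT replicate 2 with a fold of 9.90. Peaks of WT replicate 1 covered 46.5% of the KIFC2 span, the largest share of the 10 genes, and peaks of WT replicate 2 covered 35.6%.

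PITX3 and GBF1 run in opposite directions over each other. PITX3, on the minus strand at chr10:102230189-102241512, encodes a homeobox transcription factor of midbrain dopamine neurons and the eye lens. GBF1, on the plus strand at chr10:102230643-102382896, encodes a Golgi-localized exchange factor that activates ARF GTPases and is a target of brefeldin A. The strongest peak of both genes lay where the end of PITX3 meets the first annotated start of GBF1. It spanned 102229846 to 102232236 in WT replicate 1 and 102229975 to 102232227 in WT replicate 2. Coverage was 63 fragments (48.4 to 80.6) in WT replicate 1, against an MT level of 2.33, and 54 fragments (40.6 to 70.5) in WT replicate 2, against an MT level of 2.41. The folds were 19.2 and 16.1. The summits were 369 bp apart, the widest offset of the 8. In WT replicate 1 the summit lay 156 bp inside the end of PITX3 and 298 bp before the start of GBF1. In WT replicate 2 it lay 71 bp past the start of GBF1. Which gene end was nearest therefore changed with the list, PITX3's end in one and GBF1's start in the other.

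Both genes also had a weaker shared peak, at the start of PITX3 and at a second annotated start of GBF1. At the start of PITX3 the summits lay 18 and 17 bp past the start, with folds of 6.97 and 5.42. At a second annotated start of GBF1 they lay 152 and 93 bp past it, with folds of 8.05 and 8.79. WT coverage at this second start was 41 and 48 fragments, and the MT level was 4.22 and 4.58, above the 2.33 and 2.41 at the first. The promoters at the 2 annotated starts of GBF1 (GRCh38.p14, plus strand, chr10:102230393-102230692 and chr10:102245282-102245581) are printed because peaks of different height cover them, with GC boxes in capitals.
GBF1 first start: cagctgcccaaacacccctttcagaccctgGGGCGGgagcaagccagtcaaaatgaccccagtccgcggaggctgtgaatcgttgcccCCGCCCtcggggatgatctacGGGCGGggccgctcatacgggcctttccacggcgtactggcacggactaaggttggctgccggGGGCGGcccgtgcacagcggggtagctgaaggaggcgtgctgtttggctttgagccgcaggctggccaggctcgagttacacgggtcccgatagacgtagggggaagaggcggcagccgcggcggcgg
GBF1 second start: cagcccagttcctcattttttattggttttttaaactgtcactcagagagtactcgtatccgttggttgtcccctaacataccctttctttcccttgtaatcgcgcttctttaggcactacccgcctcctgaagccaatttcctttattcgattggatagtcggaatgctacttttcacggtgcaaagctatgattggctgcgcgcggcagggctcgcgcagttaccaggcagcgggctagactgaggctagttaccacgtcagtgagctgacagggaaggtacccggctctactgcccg
The run at the first start had 67.7% GC, 28 CpG dinucleotides, 4 GC boxes and no CCAAT box. The run at the second start had 51.3% GC, 17 CpG dinucleotides, no GC box and 4 CCAAT boxes.

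For CXCL16 and IMPDH2 the strongest peak lay nearest to a neighbouring gene. CXCL16 (chr17:4733533-4739928) encodes a transmembrane chemokine that binds CXCR6. Its peak sat at the start of MED11, which encodes a subunit of the Mediator complex and runs on the plus strand at 4731428 to 4733607. The peak spanned 4730689 to 4732256 in WT replicate 1 and 4731083 to 4732254 in WT replicate 2. The summits lay 145 and 101 bp past the start of MED11, and 1960 and 2004 bp outside the lower end of CXCL16. Coverage was 57 fragments (43.2 to 73.9) in WT replicate 1, against an MT level of 1.95, a fold of 19.7. In WT replicate 2 it was 49 fragments (36.3 to 64.8), against an MT level of 2.29, a fold of 15.2. A weaker WT replicate 2 peak of fold 4.38 (4730557 to 4730791) also overlapped the WT replicate 1 peak. The only shared peak inside CXCL16, near its upper end, had folds of 6.62 and 4.69. The MED11 promoter (GRCh38.p14, plus strand, chr17:4731178-4731477) is printed because both summits lie just past its start.
MED11: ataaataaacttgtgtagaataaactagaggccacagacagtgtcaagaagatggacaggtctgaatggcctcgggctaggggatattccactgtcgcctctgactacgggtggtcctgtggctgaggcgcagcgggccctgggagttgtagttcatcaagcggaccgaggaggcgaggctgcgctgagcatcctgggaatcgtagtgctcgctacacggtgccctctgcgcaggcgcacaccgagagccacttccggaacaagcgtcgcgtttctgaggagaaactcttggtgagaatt
With 56.3% GC and 19 CpG dinucleotides, it held no GC box, no CCAAT box and no TATA box (TATAAA or TTTATA), so no letters are in capitals.

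IMPDH2 (chr3:49024325-49029398) encodes inosine monophosphate dehydrogenase, the rate-limiting enzyme of guanine nucleotide synthesis. Its peak lay 2494 bp outside its lower end, inside NDUFAF3, which encodes an assembly factor of mitochondrial complex I and runs on the plus strand at 49020452 to 49023495. The nearest gene end was the start of DALRD3, on the minus strand at 49015488 to 49021505, which was 326 bp from the summit in WT replicate 1 and 336 bp in WT replicate 2. DALRD3 encodes a protein that takes part in tRNA methylation. The peak spanned 49020959 to 49023484 in WT replicate 1 and 49020929 to 49022260 in WT replicate 2. Coverage was 54 fragments (40.6 to 70.5) in WT replicate 1, against an MT level of 1.87, and 46 fragments (33.7 to 61.4) in WT replicate 2, against an MT level of 2.20. The folds were 19.2 and 14.7, again over the lowest MT level of each list. Both summits fell between annotated starts of NDUFAF3, 181 and 191 bp past the one at 49021650 and 290 and 280 bp before the one at 49022121. A weaker WT replicate 2 peak of fold 3.56 (49022775 to 49023179) also overlapped the WT replicate 1 peak. At the upper end of IMPDH2 itself the folds were 8.71 and 4.38. The promoter of DALRD3 (GRCh38.p14, minus strand, chr3:49021456-49021755) is printed because its start is the gene end nearest to the peak, with GC boxes in capitals.
DALRD3: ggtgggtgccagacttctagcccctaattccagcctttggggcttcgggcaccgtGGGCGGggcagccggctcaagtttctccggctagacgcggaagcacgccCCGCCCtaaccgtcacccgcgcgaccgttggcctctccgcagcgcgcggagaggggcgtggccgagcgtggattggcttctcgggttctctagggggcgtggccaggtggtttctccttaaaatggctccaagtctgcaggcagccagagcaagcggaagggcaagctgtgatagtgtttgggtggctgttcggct
It had 65.0% GC, 25 CpG dinucleotides, 2 GC boxes and 1 CCAAT box. The genes of miR-191 and miR-425 lay 1122 and 1597 bp from the WT replicate 1 summit, under a separate peak of fold 3.48 in WT replicate 1 and under none in WT replicate 2.

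**Figure D3:**
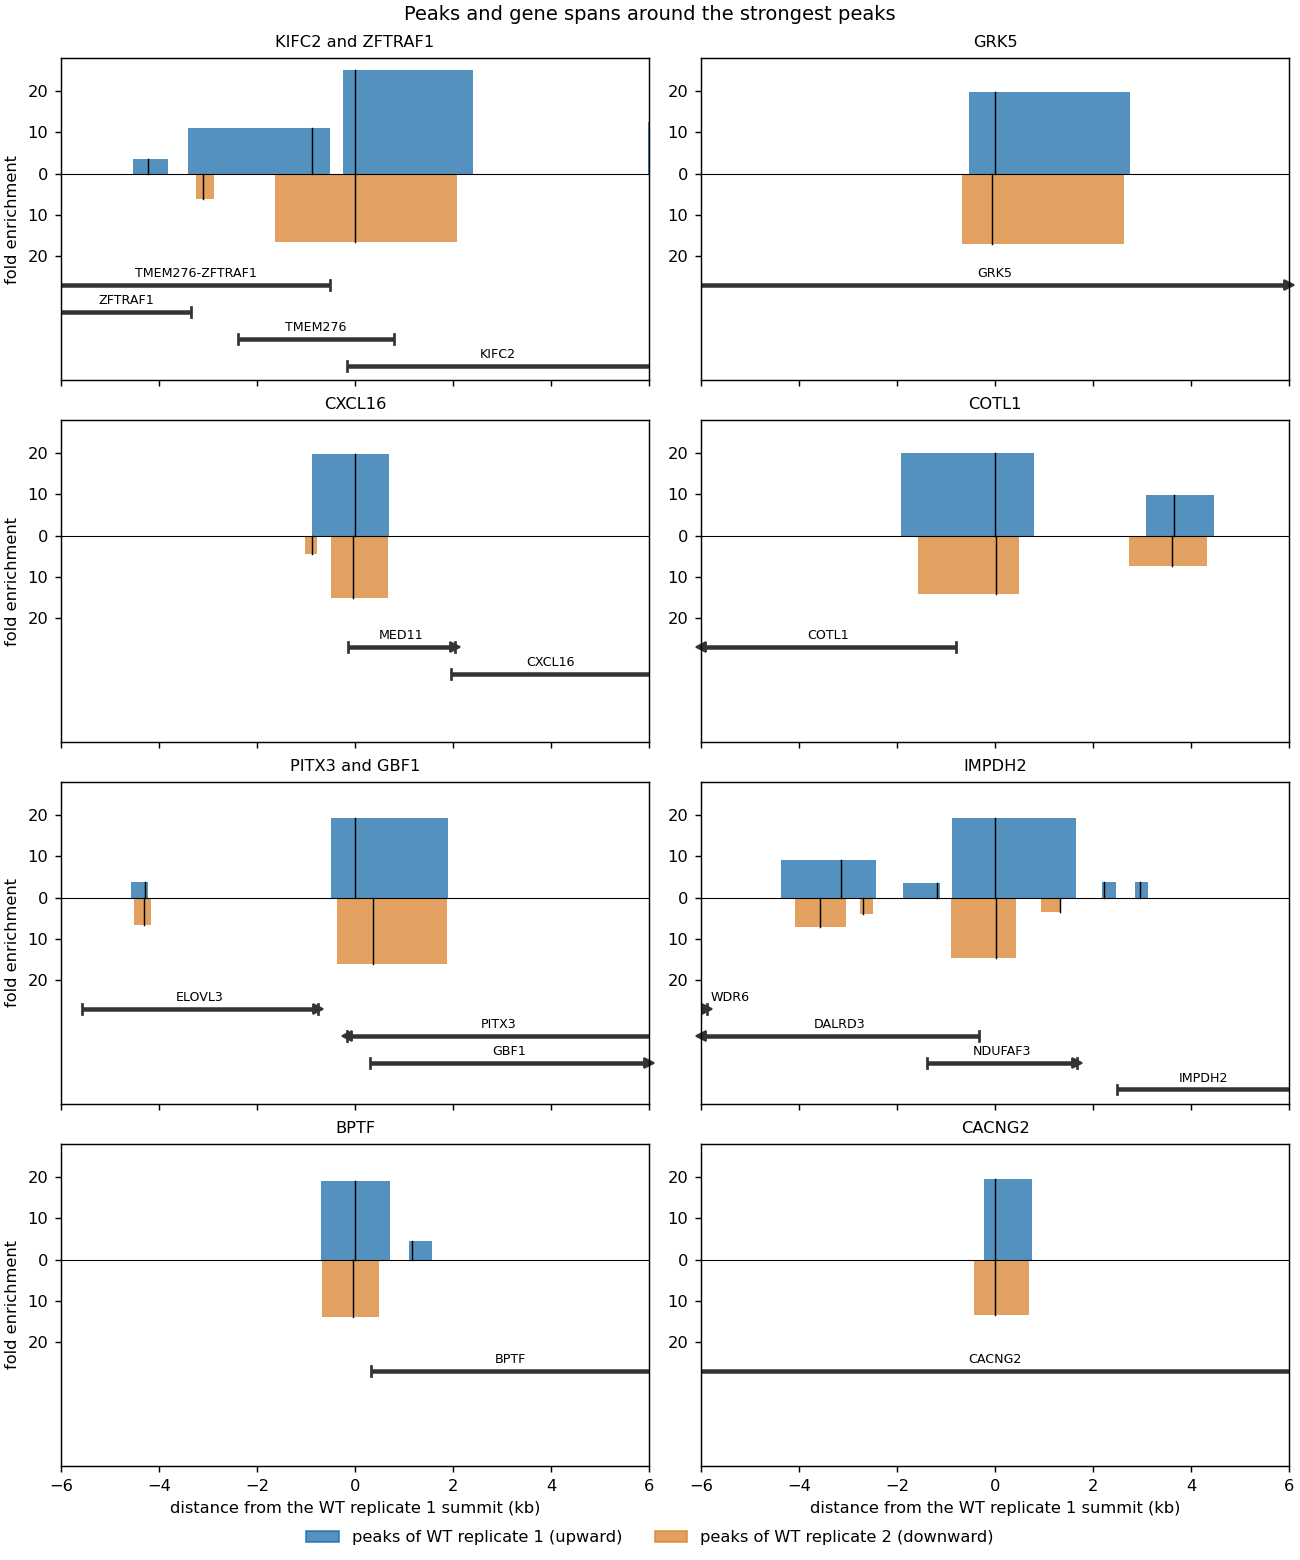
Peaks and gene spans within 6 kb of each strongest summit, with distance from the WT replicate 1 summit in kb (x axis) and fold enrichment (y axis), WT replicate 1 upward in blue and WT replicate 2 downward in orange. Black vertical lines mark summits, and bars at the foot of each panel mark protein-coding genes, with arrowheads where a strand was given. Of the 8 summits, 6 lie within 1 kb of a gene end, and the GRK5 and CACNG2 peaks lie inside the gene with no end in view.

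GRK5 and CACNG2 carried their strongest peak deep inside the gene. GRK5 (chr10:119207571-119459745, plus strand) encodes a kinase that phosphorylates activated G protein-coupled receptors. Its peak spanned 119315033 to 119318301 in WT replicate 1 and 119314886 to 119318187 in WT replicate 2, with summits 107984 and 107930 bp past the start. Coverage was 57 fragments (43.2 to 73.9) in both lists, against an MT level of 1.91 in the WT replicate 1 list and 2.41 in the WT replicate 2 list. The folds were 19.9 (15.2 to 25.7) and 17.0 (12.9 to 21.9), rank 9 and rank 2. The nearest gene end of any class was that of GRK5-AS1, a long noncoding RNA gene, 19075 bp away. Most of the peak lay on the side towards the end of GRK5, 2746 of 3269 bp in WT replicate 1 and 2686 of 3302 bp in WT replicate 2. The start of GRK5 had the second highest peak of the gene, with summits 553 and 434 bp upstream and folds of 11.92 and 11.43. Another 4 shared peaks lay inside the gene, at 98539, 63834, 46665 and 2033 bp past the start in WT replicate 1, with folds of 10.09, 7.60, 4.55 and 6.38. Their folds in WT replicate 2 were 6.14, 6.84, 4.95 and 7.39, the last with its summit 515 bp past the start. The GRK5 promoter (GRCh38.p14, plus strand, chr10:119207321-119207620) is printed as the weaker of the gene's 2 leading sites, with GC boxes in capitals.
GRK5: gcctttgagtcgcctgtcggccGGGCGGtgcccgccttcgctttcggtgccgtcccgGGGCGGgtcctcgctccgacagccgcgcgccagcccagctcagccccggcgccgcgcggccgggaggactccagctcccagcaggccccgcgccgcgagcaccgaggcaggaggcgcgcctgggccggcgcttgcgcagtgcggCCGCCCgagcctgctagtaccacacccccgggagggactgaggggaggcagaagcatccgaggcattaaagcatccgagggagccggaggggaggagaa
It had the highest GC content of the printed runs, 75%, with 38 CpG dinucleotides and 3 GC boxes.

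CACNG2 (chr22:36560857-36703752) encodes stargazin, an auxiliary subunit that carries AMPA-type glutamate receptors to the synapse. Its peak was the shortest of the 8 in both lists, 979 bp in WT replicate 1 (36659796 to 36660774) and 1124 bp in WT replicate 2 (36659600 to 36660723). The summits were 8 bp apart and 43727 and 43719 bp from the upper end of the gene. Coverage was 73 fragments (57.2 to 91.8) in WT replicate 1, the highest of the 8, against an MT level of 2.80. In WT replicate 2 it was 52 fragments (38.8 to 68.2), against an MT level of 2.94. The folds were 19.5 (15.3 to 24.4) and 13.5 (10.1 to 17.6). The MT levels were also the highest of the 8. They lay within the quartiles of all shared peaks, 1.87 to 2.81 in the WT replicate 1 list and 2.20 to 3.44 in the other. The MT level is a local one and need not be the coverage at the summit itself. The next summit was 15.5 kb away in WT replicate 1, with a fold of 3.83, and 93.4 kb away in WT replicate 2. Within the gene, no other peak passed a fold of 3.83 in WT replicate 1 or 3.88 in WT replicate 2.

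Across the 8 peaks, 6 summits (75%) lay within 1 kb of a protein-coding gene end, where 27.5% of all shared summits did and 51.4% of the 504 shared summits with a fold of 10 or more in both lists. The choice of peaks in or near genes bears on this count, because 13 shared peaks ranked at or above the weakest of the 8 in both lists and 5 of them belonged to none of the 10 genes, 3 of these lying over 5 kb from any protein-coding gene end. The median distance to a gene end was 322 bp for the 8 peaks, 875 bp for the strong shared peaks and 10242 bp for all shared peaks. The remaining 2 of the 8, in CACNG2 and GRK5, lay over 40 kb from any protein-coding gene end. The nearest end belonged to one of the 10 genes at 6 peaks, and to MED11 or DALRD3 at the other two. With summits inside the gene span only, which gives 9 distinct strongest peaks, 4 of 9 lay within 1 kb of a gene end and the median distance was 4172 bp, farther than for the strong shared peaks.

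**Figure D4:**
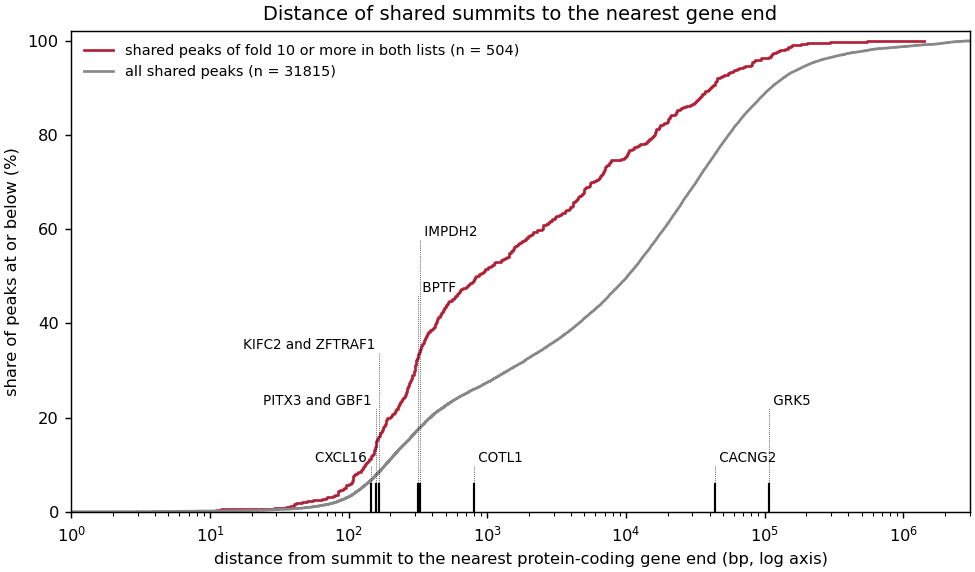
Cumulative share of shared peaks (y axis, %) by distance from the summit to the nearest protein-coding gene end (x axis, bp on a log axis), with black ticks for the 8 strongest peaks of the 10 genes. The red line holds the 504 shared peaks of fold 10 or more in both lists and the grey line all 31815. The nearest 6 ticks lie between 145 and 804 bp, and the other two at 43727 and 107984 bp.

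The 2 WT libraries placed the summits close together. At 7 of the 8 peaks the summits lay within 60 bp of each other, as did 63.7% of the strong shared peaks and 35.3% of all shared peaks. The median offset was 30.5 bp for the 8, 42 bp for the strong shared peaks and 128 bp for all shared peaks. It was 59.0 bp, above that of the strong shared peaks, for the 9 strongest peaks with summits inside the gene span. The peaks were also long, with a median of 2458 bp in WT replicate 1 and 1701 bp in WT replicate 2, against 1067 and 613 bp over all shared peaks and 1952 and 1454 bp over the strong ones. Length and height come from the same coverage and are not separate evidence. The longer arm from the summit held a median of 73.8% of the peak in WT replicate 1, from 50.4% at BPTF to 90.7% at KIFC2, against 63.5% for strong shared peaks and 67.4% for all. In WT replicate 2 the median was 64.5%, from 54.3% at BPTF to 81.4% at GRK5, against 63.7% for strong shared peaks and 70.6% for all. The longer arm lay on the same side in both lists at 5 of the 8 peaks, and on opposite sides at CXCL16, IMPDH2 and BPTF. The share of all shared peaks with the same side was not computed, so nothing is read from this count. At CXCL16 and IMPDH2 a second, weaker WT replicate 2 peak also overlapped the WT replicate 1 peak and was not counted in the arms. At BPTF the longer arm held only 50.4% and 54.3% of the peak. A change of shape between the lists was not tested.

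Fold was higher in WT replicate 1 than in WT replicate 2 at 8 of 8 peaks, as at 77.2% of all shared peaks and 83.5% of the strong ones. Coverage per 1000000 fragments was 2.48 to 3.35 in WT replicate 1 and 1.64 to 2.08 in WT replicate 2. It too was higher in WT replicate 1 at 8 of 8 peaks, as at 89.4% of all shared peaks and 97.4% of the strong ones. The ratio of the 2 libraries ranged from 1.26 at GRK5 to 1.77 at CACNG2, with a median of 1.51. The median was 1.43 over all shared peaks and 1.33 over the strong ones, whose upper quartile was 1.51. Exact Poisson intervals of this scaled coverage did not overlap at 2 of the 8, the KIFC2 and CACNG2 peaks. The share of all shared peaks without overlap was not computed, so this count does not set the 2 peaks apart. The 8 peaks thus differed between the WT libraries in the direction of the lists as a whole.

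Apart from their strongest peak, most of the 10 genes carried only sites with a fold under 10. Their second-highest folds ran from 3.83 to 12.54 in WT replicate 1 and from 3.88 to 11.43 in WT replicate 2. The upper quartiles over all shared peaks were 7.99 and 6.06. With the strongest peaks included, the distinct summits of the 10 genes numbered 79 in WT replicate 1. Of these, 13 had a fold of at least 10 and 66 a lower one. In WT replicate 2 they numbered 45, of which 9 reached that fold and 36 did not. Of the 79 and 45 summits, 35 and 38 were in shared peaks, where 39.1% of all WT replicate 1 peaks were. The share over all WT replicate 2 peaks was not computed. Nor was the share of each list with a fold of at least 10, so these counts are descriptions. Apart from the strongest peaks, summits of fold at least 10 lay only at KIFC2, ZFTRAF1 and GRK5. Their folds were 10.09 to 12.54 in WT replicate 1, and 11.43 at GRK5 in WT replicate 2. The strongest peak exceeded the second by 1.67 times at GRK5 to 5.09 times at CACNG2 in WT replicate 1, and by 1.49 times at GRK5 to 3.47 times at CACNG2 in WT replicate 2. GRK5 was thus the gene with the closest second site and CACNG2 the one with the most isolated peak.

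The 4 genes over 100 kb differed in how densely they held summits. GBF1 had 17.7 summits per 100 kb of its span in WT replicate 1 and 7.88 in WT replicate 2, and BPTF had 9.44 and 3.15. GRK5 had 3.57 and 3.17, and CACNG2 had 2.80 and 1.40. Over the 3356 protein-coding genes of this length, the median was 2.44 in WT replicate 1 (quartiles 0.908 and 5.50) and 0.927 in WT replicate 2 (0.176 and 2.34). GBF1 and BPTF therefore lay above the upper quartile in both lists, GRK5 in WT replicate 2 only, and CACNG2 within the quartiles in both. Inside GBF1, apart from the peaks at its 2 annotated starts and at the start of PITX3, no peak passed a fold of 6.31 in WT replicate 1 or 4.98 in WT replicate 2. Of the WT replicate 1 summits in each gene or within 5 kb of it, 11 of 29 at GBF1 and 4 of 16 at BPTF were in shared peaks, where 39.1% of all WT replicate 1 peaks were shared.

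**Figure D5:**
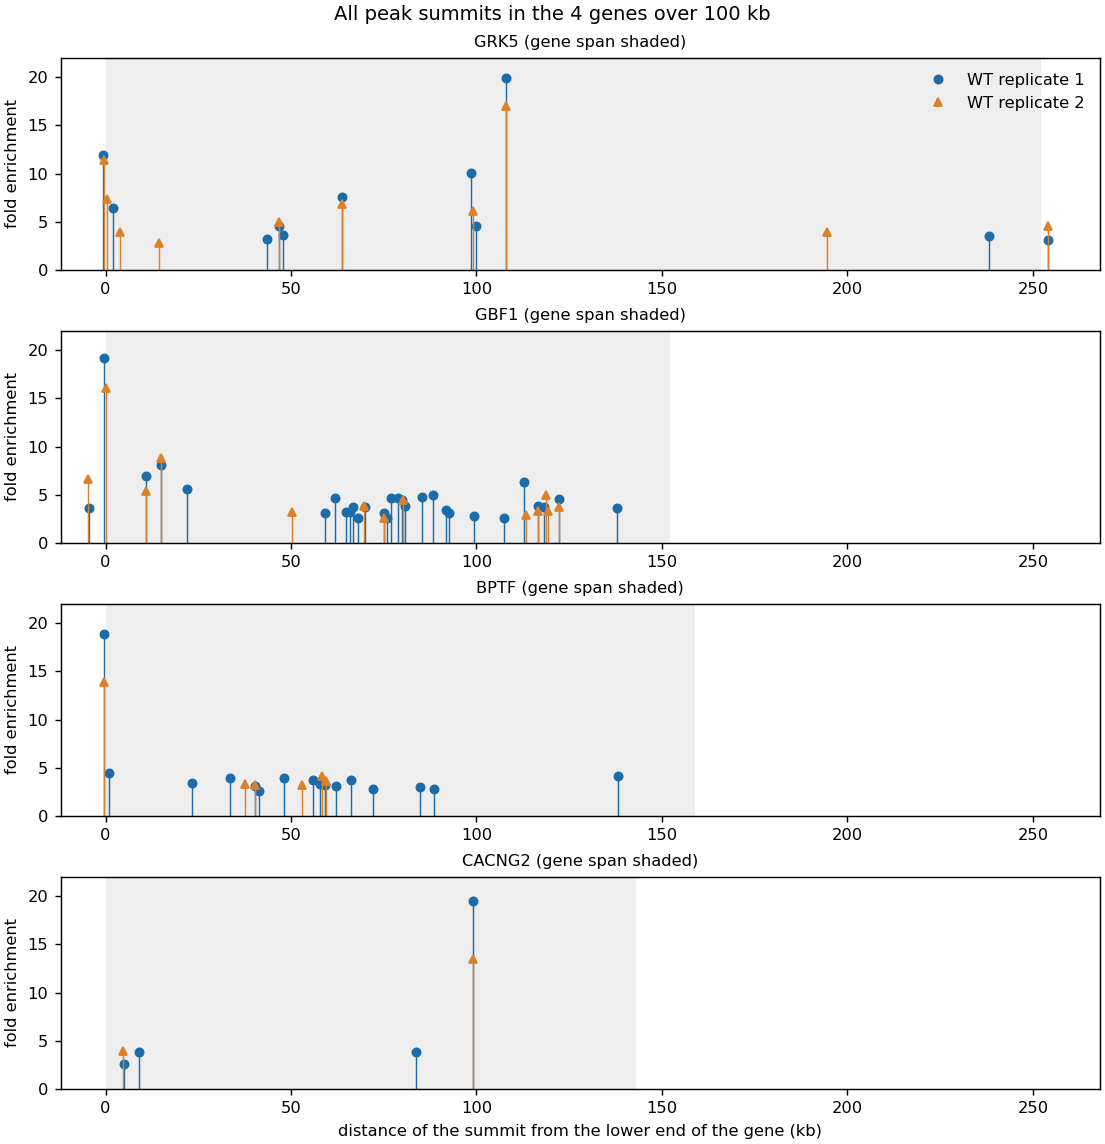
Fold enrichment (y axis) of every summit in the 4 genes over 100 kb, by distance from the lower end of the gene in kb (x axis), with WT replicate 1 as blue circles, WT replicate 2 as orange triangles and the gene span shaded. In each gene 1 site exceeds a fold of 13 in both lists, at the lower end in GBF1 and BPTF and inside the gene in GRK5 and CACNG2.

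Relatives of the 10 genes had shared peaks about as often as other genes. Of 48 genes in 9 lists of family members and partners, 34 (70.8%) had a shared peak, against 66.6% of protein-coding genes, and 2 (4.17%) passed a fold of 10 in both lists, against 2.83%. These were CFL1, which encodes the actin-severing protein cofilin, with folds of 10.1 and 11.6, and IMPDH1, the second inosine monophosphate dehydrogenase, with folds of 10.7 and 10.4. The median of the highest fold was 8.20 and 6.11 for the relatives with a shared peak, and 7.95 and 5.97 for all protein-coding genes with one. Of the relatives of COTL1 with a cofilin fold, 8 of 9 had a shared peak, and so did all 6 of the exchange factors and ARF GTPases related to GBF1, none of which passed a fold of 10 in both lists. For IMPDH2, 5 of 6 genes of guanine nucleotide synthesis had one. The homeobox gene PITX1 had one, with folds of 6.97 and 5.95, and so did the kinesin genes KIFC1 and KIFC3. Of the partners of BPTF in NURF, 4 of 6 had a shared peak, led by HMGXB4 at folds of 11.7 and 8.89. Shared peaks were found at 4 of 6 other G protein-coupled receptor kinase genes, with folds of 8.36 and 5.01 at GRK4 and 6.31 and 9.25 at GRK2. For CXCL16, the sheddases ADAM10 and ADAM17 had shared peaks, while the receptor gene CXCR6 and the related chemokine gene CX3CL1 had no summit in either list. Among the 7 other CACNG genes, which encode auxiliary subunits of calcium channels and AMPA receptors, only CACNG8 had a shared peak, with folds of 8.04 and 7.13, and 4 had no summit in either list.

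The promoter table matched 4 of the 10 genes, GRK5, COTL1, PITX3 and GBF1. Among all 35116 promoters of 300 bases in it, 45.0% held a GC box on either strand, 34.6% a CCAAT box and 11.5% a TATA box, with a median GC content of 58.7%. Among the 451 promoters under a shared peak with a fold of 10 or more in both lists, 76.3% held a GC box, 32.6% a CCAAT box and 3.99% a TATA box, with a median GC content of 66.0%. The first start of GBF1 and the starts of COTL1 and DALRD3, at 67.7%, 73.7% and 65.0% GC, each held at least 1 GC box. Among the printed runs under a strongest peak MED11 alone held none, with a GC content of 56.3%, under the median of all promoters. A match of letters is no evidence of a bound factor.

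The edge of the selection was not sharp. The weakest of the 8 by its worse rank among shared peaks was CACNG2, at rank 41, with folds of 19.5 and 13.5. Peaks of none of the 10 genes also ranked above it, some of them near genes. One lay 155 bp from an end of RABIF (rank 30, folds 18.8 and 13.8). Another lay 3069 bp from an end of VSIG10L (rank 35, folds 18.5 and 14.7). The 5 shared peaks just below CACNG2, at worse ranks of 44 to 53, had folds of 17.8 to 19.0 in WT replicate 1 and 13.1 to 14.4 in WT replicate 2. These folds lie within the counting intervals of the CACNG2 folds.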

How the data were processed

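CUT&RUN for GFP was sequenced in paired-end mode with reads of 75 bp, per the labels' protocols. The submitters' processing notes give the build hg38 and, with no role or order, the tools MACS2 (2.1.2), Bowtie2 (2.3.4) and ChIPseeker (1.28.3). The authors called narrow peaks per WT library against MT replicate 1 at a q-value limit of 0.05, with a smallest length of 200 bp, at most 2 fragments per position and control ranges of 1000 and 10000 bp, per the file headers. The deposited pileup is the coverage signal of the WT library at the summit, and the deposited fold is its ratio to the local control level. Each deposited −log10 p-value and its −log10 q-value are those of MACS2, per the file headers.

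The file headers state that the larger dataset was scaled to the smaller. WT pileups were all whole numbers, and the lowest MT level equalled the genome background of each WT library, so WT was read as unscaled. The MT level was computed back from pileup and fold, and its lowest value was 1.87 in the WT replicate 1 list and 2.20 in the WT replicate 2 list. A WT replicate 1 peak overlapping a WT replicate 2 peak by at least 1 bp counted as shared. It was paired with the overlapping peak of highest fold and placed at the WT replicate 1 summit. The mitochondrial chromosome was not used. Gene spans and promoter sequences are those of RefSeq (GRCh38.p14). Strand came from the promoter table where it lists the gene. Intervals are exact Poisson intervals at 95%, for counting error only. The steps were tested on simulated peaks. The 10 genes and the 9 lists of relatives were chosen with earlier results of these data known. Every member is described in the text. The values of 1 relative are not reported here. Python 3.11.15, pandas 2.3.3, numpy 2.4.6, scipy 1.17.1 and matplotlib 3.10.9 were used.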

Additional observations from a re-analysis of the deposited data

How the results depend on the processing

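Each result was recomputed under up to 14 other settings. With WT replicate 1 summits inside the gene span only, 4 genes rather than 10 passed a fold of 10 in both lists, because peaks just outside a gene were then dropped. The median distance to a gene end was 4172 bp and the median summit offset 59.0 bp, over 9 distinct peaks, 4 of them within 1 kb. These 3 values stood on the other side of those of the strong shared peaks than they do for the 8 peaks. The highest fold of shared peaks placed at the WT replicate 1 summit, in WT replicate 1 and in WT replicate 2, then became 6.62 and 4.69 for CXCL16, 5.16 and 5.08 for COTL1, 8.05 and 8.79 for GBF1, 8.71 and 4.38 for IMPDH2, and 3.32 and 4.15 for BPTF. With peaks at the lowest MT level only, 4 genes had a shared peak and 3 passed a fold of 10, the 3 distinct strongest peaks left all lay within 1 kb of a gene end, with a median distance of 166 bp and a median offset of 10.0 bp, and 14 relatives had a shared peak, against 34. With a −log10 q of at least 10, 13 relatives had one. With summits within 1 kb of the gene, 9 of the 10 genes had a shared peak and 7 passed a fold of 10 in both lists. ZFTRAF1 then had no shared peak, and CXCL16 and IMPDH2 fell to the same folds as inside the gene span. The median distance was 348 bp with summits placed by WT replicate 2, and it ranged from 322 to 348 bp when either WT list was left out. Of 144 alternative values of the highest fold per gene and list, 128 kept the main value and 16 moved by more than the SD between the WT libraries. Those 16 came from summits inside the gene span, summits within 1 kb of the gene and peaks at the lowest MT level. Most other settings could not remove a peak chosen as the highest, so the count of unchanged values is no test.

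No paired analysis was possible because each list sets 1 WT library against the same MT library and no result comes from a test. Depth limits single peaks, since a summit of 45 to 73 fragments has an interval that spans the gap to its neighbours in rank. MT levels under the genome background cannot be read.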
